A study of Mus musculus with 2 samples.

Results

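The mitochondrial ribosome was described through 78 genes, all those with a mouse symbol that starts with Mrpl or Mrps and a digit, without pseudogenes. Of these, 49 are named for the large subunit (Mrpl) and 29 for the small subunit (Mrps), among 22911 named genes on the array. The RNA came from regulatory T cells (Tregs) sorted as CD45+CD3e+CD4+FoxP3-hCD2+ cells from mouse kidney on day 28 of cGN, a kidney disease induced with anti-GBM antibodies, which bind the basement membrane of the kidney's filters. FoxP3-hCD2 is a reporter that places human CD2 on cells that express Foxp3. Both samples carried the reporter and both received the induction, 1 with antibody lot I and 1 with lot M, and per the labels the severity of disease varied with the lot. No group without disease was analysed here, and the labels used here give no strain, age, sex or number of animals pooled.

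Mitochondria keep their own ribosomes to translate the few proteins that mitochondrial DNA encodes, nearly all of them core subunits of the respiratory chain and ATP synthase. The ribosomal RNAs are made in the mitochondrion, whereas every protein of these ribosomes is encoded in the nucleus, made in the cytosol and imported. In T cells, mitochondrial translation is known to be needed for respiration as cells become activated, and Tregs are known for their reliance on oxidative metabolism. A part of the proteins has counterparts in bacterial ribosomes, and the others are specific to mitochondria.

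Each sample was hybridised to 1 single-colour array, so there is 1 array per lot, no replicate and no test, and every difference below is a description of these 2 arrays. On array 1 and on array 2, 54.0% of the probes were well above background. A level is given as log2 of the signal over the 75th percentile of the array's probes, so that 0 is the signal of a probe at that percentile. The lowest level well above background was -4.62 on array 1 and -4.58 on array 2. Array 1 passed the scanner's quality summary, and array 2 did not, because of its detection limit for spike-in RNA. The 2 deposited sources assign the lots in opposite ways. In the scanner output, lot I is array 1 and lot M is array 2. In the value table, the column of lot M holds the values of array 1: for the 90 member probes with signals of 300 or more, log2 of array 1's signal over the table's value had an SD of 0.000103 with that column and of 0.0880 with the column of lot I. All differences are therefore given as array 2 minus array 1, so that a positive value means higher with lot M if the scanner output is right and higher with lot I if the value table is right.

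The sorted-cell label was checked against its markers. The 6 Treg and T cell markers (Foxp3, Il2ra, Ctla4, Ikzf2, Cd3e and Cd4) were all well above background on both arrays, at levels from 3.21 to 5.47 on array 1 and from 3.20 to 5.58 on array 2. All 16 proximal tubule markers were measured too, with none of them absent. Their summed signal was 96.01 times the 75th percentile on array 1 and 196.6 times on array 2. The 6 Treg and T cell markers had sums of 158.3 and 161.7. Kap, a proximal tubule marker at 5.57 and 6.54, was brighter than each of those 6 on both arrays. Such sums rest on different probes and numbers of genes, so they give no shares of RNA. All 8 macrophage and monocyte markers were measured, with sums of 16.7 and 21.2. In sorted bulk RNA, fewer cells of a type and less RNA per cell cannot be told apart.

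Every one of the 78 genes was detected. All 101 of their probes were well above background on both arrays, whereas 59.98% of all named genes were measured on both. Of the 78 genes, 75 lay above the 75th percentile of array 1, and 75 did so on array 2, beside 56.5% and 56.8% of the 13743 genes measured on both arrays. The median level of the 78 genes was 3.27 on array 1 and 3.37 on array 2, compared with 0.46 and 0.49 over all genes measured. The middle 50% of the genes lay between 2.03 and 4.10 on array 1 and between 2.03 and 4.18 on array 2. No member spot was saturated or marked as an outlier.

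**Figure D1:**
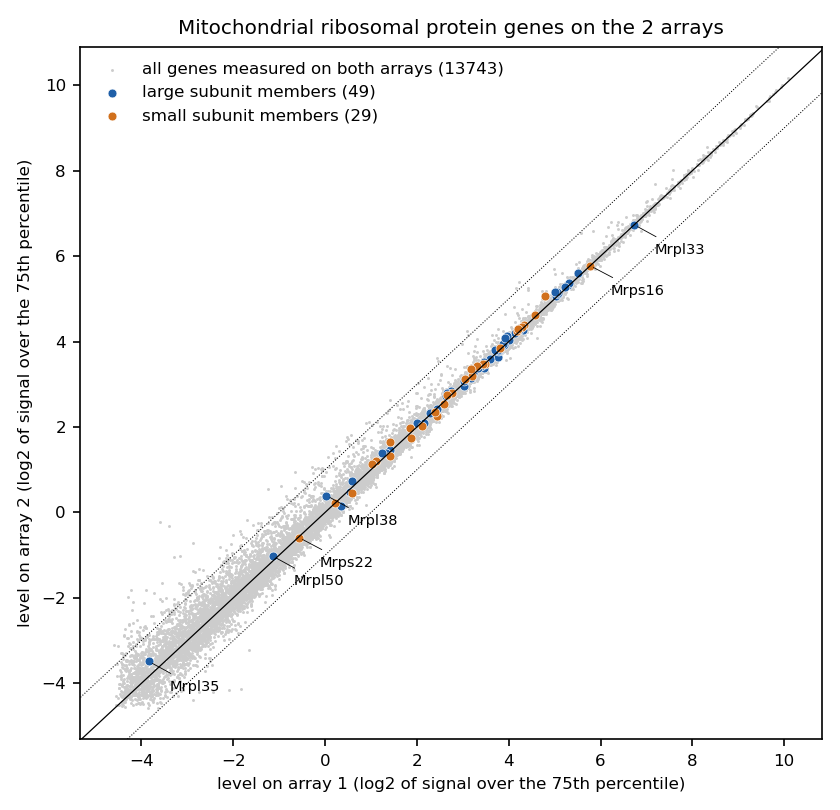
Level of each gene on array 1 (horizontal) and on array 2 (vertical), both as log2 of signal over the 75th percentile of the array. Blue points are the 49 large subunit genes, orange points the 29 small subunit genes and grey points the 13743 genes measured on both arrays. The solid line marks equal levels and the dotted lines 2-fold. All 78 members lie within the dotted lines, and 75 of them above 0 on each array.

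The brightest members came from both subunits. Mrpl33, a small protein with a counterpart in the bacterial large subunit, stood at 6.73 on array 1 and at 6.73 on array 2. Mrps16, a counterpart of a protein in the body of the bacterial small subunit, had 5.76 and 5.78. Mrpl52, a mitochondria-specific protein, had 5.51 and 5.59, and Mrpl20, whose bacterial counterpart acts early in large subunit assembly, had 5.31 and 5.37. For each of these the arrays differed by less than 0.10.

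At the other end, 3 genes were dimmer than the 75th percentile in both samples. Mrpl35, which has a counterpart in the bacterial large subunit and 1 probe here, was the dimmest, at -3.84 on array 1 and -3.49 on array 2, not far above the detection floor. Mrpl50 had -1.14 and -1.02. Mrps22 had -0.57 and -0.59 as the mean of probes at 1.30 and -2.44 on array 1. Mrpl50 and Mrps22 encode mitochondria-specific proteins.

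These levels do not order the genes by abundance, because different probes respond differently to the same amount of RNA. In the 21 members with 2 or 3 probes, the brightest and the dimmest probe of a gene lay a median of 2.60 apart on the log2 scale. The gap, averaged over both arrays, ran from 0.49 in Mrpl48 to 5.72 in Mrps33, a mitochondria-specific small subunit protein whose probes had levels of 4.74 and -0.89 on array 1. The median level of the large subunit genes was 3.47 on array 1 and 3.52 on array 2, and that of the small subunit genes 2.77 and 2.80. The medians lay 0.70 apart on array 1 and 0.73 on array 2, and since they rest on different probes no order of the subunits was read from them. With the brightest probe for each gene the medians on array 1 were 3.70 and 3.32.

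Differences between the arrays were far less dependent on the probe. The probes of a member differed in their array difference by a median of 0.034, and at most by 0.24 (Mrps9). In 19 of the 21 genes all probes had the same sign, and 2 genes, Mrps17 and Mrps33, had probes of opposite sign. Over all 5125 genes with several measured probes the median gap was 0.12, and 39.0% had probes of opposite sign. Those genes were not matched to the members in brightness, and bright genes vary less between arrays, so closer probes are not read as a trait of the members.

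**Figure D2:**
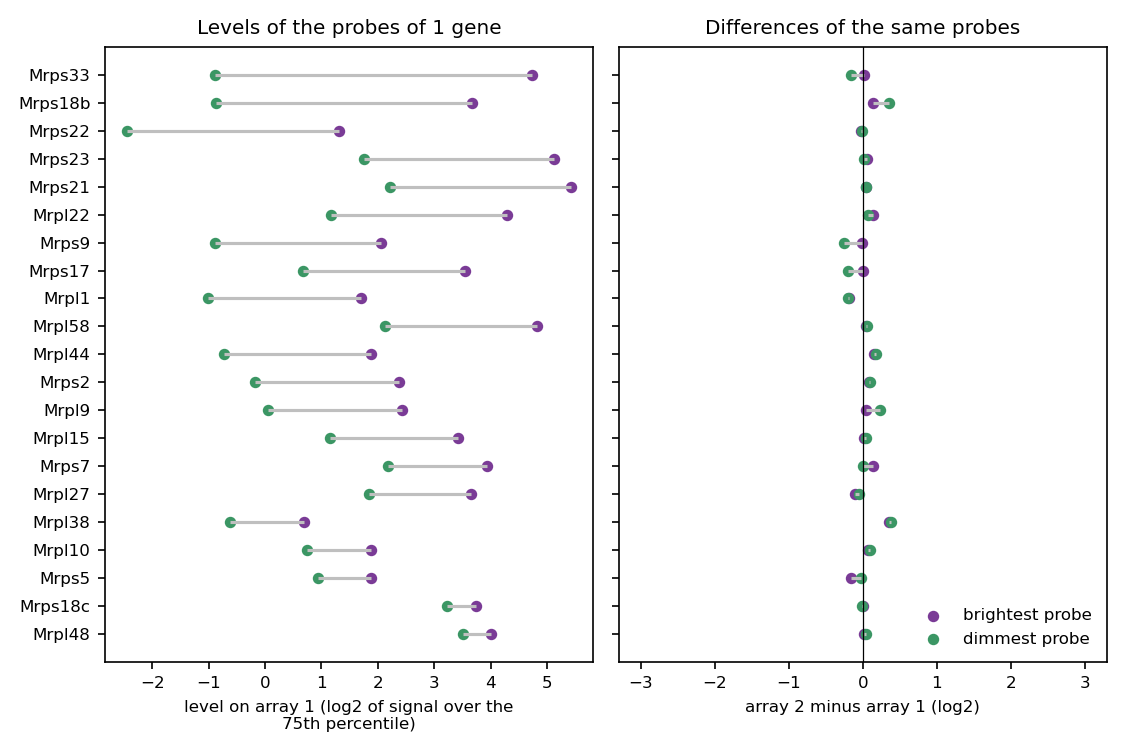
Brightest (purple) and dimmest (green) probe of the 21 members with several probes. The left panel gives the level on array 1 (log2 of signal over the 75th percentile) and the right panel the difference of the same probes, array 2 minus array 1 (log2), on an axis of similar width. In Mrps33 the levels are 4.74 and -0.89, while the differences of the 2 probes of any gene lie at most 0.24 apart.

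Promoter sequences were taken from RefSeq (GRCm38.p6) as windows from 250 bases before to 50 bases after a gene's start. Of the 78 genes, 69 had a window, with 75 windows in all. Mrpl13, Mrpl15, Mrpl19, Mrpl38, Mrpl4, Mrpl54, Mrps28, Mrps34 and Mrps35 were not in the table. The member windows held a median of 21 CpG dinucleotides, close to the 19 in the 13905 windows of genes measured on both arrays, and above the 7 in all 32851 windows. Short motifs were searched on both strands, namely GCGCATG (a core of the NRF1 site), CCGGAAG (a site of GABPA and other ETS factors), ATGGCGG (a core of the YY1 site), CCAAT (NF-Y), GGGCGG (SP1 and related factors) and TATAAA (TBP). The forms of the NRF1 core on the 2 strands can overlap each other, and GGGCGG shares letters with ATGGCGG. NRF1 and GABPA are known regulators of nuclear genes for mitochondrial proteins.

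The ETS motif was in 26 of 75 member windows (34.7%), compared with 16.3% of the windows of measured genes and 8.86% of all windows. The YY1 core was in 17.3% of member windows, 7.34% of those of measured genes and 4.05% of all. The NRF1 core was in 8 member windows (10.67%), compared with 6.20% and 3.91%. The cytosolic ribosomal protein genes held the ETS motif in 34.7% of their 75 windows, the same share as the members, and the respiratory chain genes in 22.4% of 76. The YY1 core was in 18.7% and 14.5% of the windows of these groups, and the NRF1 core in 12% and 17.1%, both above the members' share. The CCAAT motif, in 40.0% of member windows, stood close to its share in all windows (37.4%), and the SP1 motif, in 52.0%, lay below its share among measured genes (58.6%). TATAAA was in 6.67% of member windows, 8.11% of those of measured genes and 13.6% of all. A match is a description of letters and shows no binding.

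**Figure D3:**
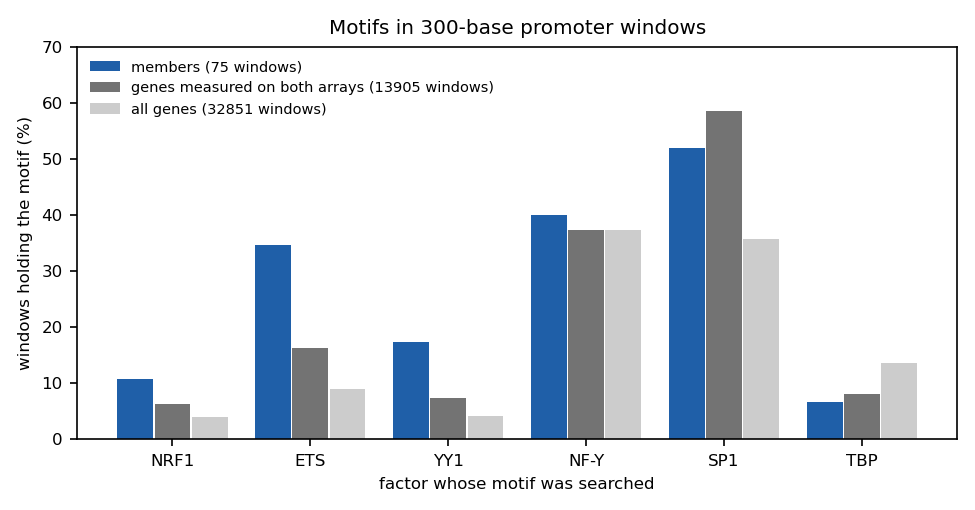
Share of 300-base promoter windows (%) that hold the motif searched for each factor, on either strand. Blue bars are the 75 windows of the members, dark grey bars the 13905 windows of genes measured on both arrays and light grey bars all 32851 windows. The ETS bar of the members stands at 34.7%, above 16.3% and 8.86%.

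Promoters of 6 genes are shown as examples of these motifs, with the NRF1, ETS and YY1 motifs in capitals. The windows with both the NRF1 core and the ETS motif were those of 4 genes, Mrpl17 (chr7:105811038-105811337, minus strand), Mrpl22 (chr11:58171414-58171713, plus strand), Mrpl33 (chr5:31613701-31614000, plus strand) and Mrps18b (chr17:35916391-35916690, minus strand). Mrpl22 also holds the YY1 core, just after the gene's start. Mrps12 (chr7:28741772-28742071, minus strand) and Mrps11 (chr7:78782881-78783180, plus strand) follow, because each starts next to another gene of mitochondrial translation that is read the other way.
Mrpl17: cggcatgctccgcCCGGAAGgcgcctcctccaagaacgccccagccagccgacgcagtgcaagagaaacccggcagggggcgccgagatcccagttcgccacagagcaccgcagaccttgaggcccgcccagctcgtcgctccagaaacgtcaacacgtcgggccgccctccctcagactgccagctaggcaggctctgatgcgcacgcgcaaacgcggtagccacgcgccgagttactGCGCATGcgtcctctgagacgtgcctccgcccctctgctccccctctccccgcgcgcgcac
Mrpl22: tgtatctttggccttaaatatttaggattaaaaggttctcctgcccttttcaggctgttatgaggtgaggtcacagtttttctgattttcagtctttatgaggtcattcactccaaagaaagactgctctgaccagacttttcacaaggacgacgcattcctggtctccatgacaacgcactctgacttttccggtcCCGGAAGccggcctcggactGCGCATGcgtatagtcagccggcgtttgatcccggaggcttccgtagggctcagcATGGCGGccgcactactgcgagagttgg
Mrpl33: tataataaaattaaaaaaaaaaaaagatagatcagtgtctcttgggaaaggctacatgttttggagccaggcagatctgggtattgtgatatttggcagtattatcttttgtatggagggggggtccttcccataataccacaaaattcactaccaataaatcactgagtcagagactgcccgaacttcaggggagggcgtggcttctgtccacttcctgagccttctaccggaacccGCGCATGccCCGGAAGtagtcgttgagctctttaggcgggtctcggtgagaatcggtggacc
Mrps18b: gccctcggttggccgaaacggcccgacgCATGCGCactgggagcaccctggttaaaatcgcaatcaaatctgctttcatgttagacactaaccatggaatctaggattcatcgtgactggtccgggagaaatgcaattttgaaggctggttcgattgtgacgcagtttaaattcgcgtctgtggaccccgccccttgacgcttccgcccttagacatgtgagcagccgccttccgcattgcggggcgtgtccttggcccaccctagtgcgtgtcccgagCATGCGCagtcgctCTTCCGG
Mrps12: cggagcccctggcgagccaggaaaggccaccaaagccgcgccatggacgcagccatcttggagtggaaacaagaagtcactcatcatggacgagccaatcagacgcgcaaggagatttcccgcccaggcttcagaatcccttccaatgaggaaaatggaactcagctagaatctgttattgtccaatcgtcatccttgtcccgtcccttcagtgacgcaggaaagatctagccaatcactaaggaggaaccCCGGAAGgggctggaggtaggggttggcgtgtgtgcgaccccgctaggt
Mrps11: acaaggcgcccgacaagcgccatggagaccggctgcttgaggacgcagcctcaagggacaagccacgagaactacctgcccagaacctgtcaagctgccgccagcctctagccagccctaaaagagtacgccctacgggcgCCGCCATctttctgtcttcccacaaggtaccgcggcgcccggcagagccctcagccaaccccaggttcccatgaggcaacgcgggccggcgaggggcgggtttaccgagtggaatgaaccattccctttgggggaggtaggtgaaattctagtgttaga

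Head-to-head neighbours were frequent among the members. A gene read in the opposite direction from a start at most 500 bases away was found for 23 of 69 members (33.3%), compared with 16.7% of genes measured on both arrays and 10.9% of all genes in the table. Mrps11 and Mrpl46 form such a pair, with 42 bases between their starts, so their windows overlap. Mrps11, a small subunit platform protein, had levels of 1.01 and 1.14 (difference 0.13 ± 0.20), and Mrpl46, a protein of the large subunit's central protuberance, 2.63 and 2.73 (0.10 ± 0.20). Each difference is followed by a spot error, taken from the error that the scanner software assigns to a spot, in which animals and lots play no part. It was 0.20 both for Mrpl33 at a level of 6.73 and for Mrps11 at 1.01. For most members with 1 probe, passing the spot error is therefore close to passing a fixed difference. For a gene with 2 or 3 probes the spot error is the error of their mean, which is smaller than that of each spot. Mrps12, the protein of the decoding centre, is read away from Sars2, the mitochondrial seryl-tRNA synthetase, with 147 bases between. Mrps12 differed by 0.09 ± 0.20 and Sars2 by -0.27 ± 0.20. Mrpl43 is read away from Twnk, the mitochondrial DNA helicase, with 116 bases between, and the values were 0.14 ± 0.20 and 0.42 ± 0.21. Mrpl32 and the proteasome gene Psma2 lie 205 bases apart and differed by -0.12 ± 0.20 and -0.02 ± 0.20. Of the partners, 22 were measured on both arrays.

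No member differed between the arrays by 2-fold or by 1.5-fold. The count was 0 of 78 at 2-fold, where 1.43% of the 13743 genes passed (1.34% higher in array 2 and 0.0873% higher in array 1). At 1.5-fold it was again 0 of 78, where 5.97% passed (5.15% and 0.815%). The differences ran from -0.19 to 0.37 on the log2 scale, from 0.874-fold to 1.29-fold, with a median of 0.050 (1.04-fold) beside 0.014 for all genes measured. Of the 78 genes, 66 lay within 1.1-fold, beside 60.2% of all genes. Bright genes vary less between arrays, so the same counts were taken over the 7639 genes above the 75th percentile on both arrays, a comparison chosen after seeing the data. There 76.7% lay within 1.1-fold, compared with 64 of the 75 members at that brightness, while 53.1% were higher in array 2, compared with 56 of the 75, and 1.27% passed 1.5-fold and 0.288% passed 2-fold, compared with 0 of the 75. The SD of the differences was 0.094 over these 75 members and 0.16 over the 7639 genes. Repeated spots of 1 probe on 1 array are a smaller source of spread that leaves out labelling and hybridisation. For probes above the 75th percentile, their median SD was 0.034 on array 1 and 0.033 on array 2. On the scale of a difference between 2 such spots, these become 0.048 and 0.047.

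**Figure D4:**
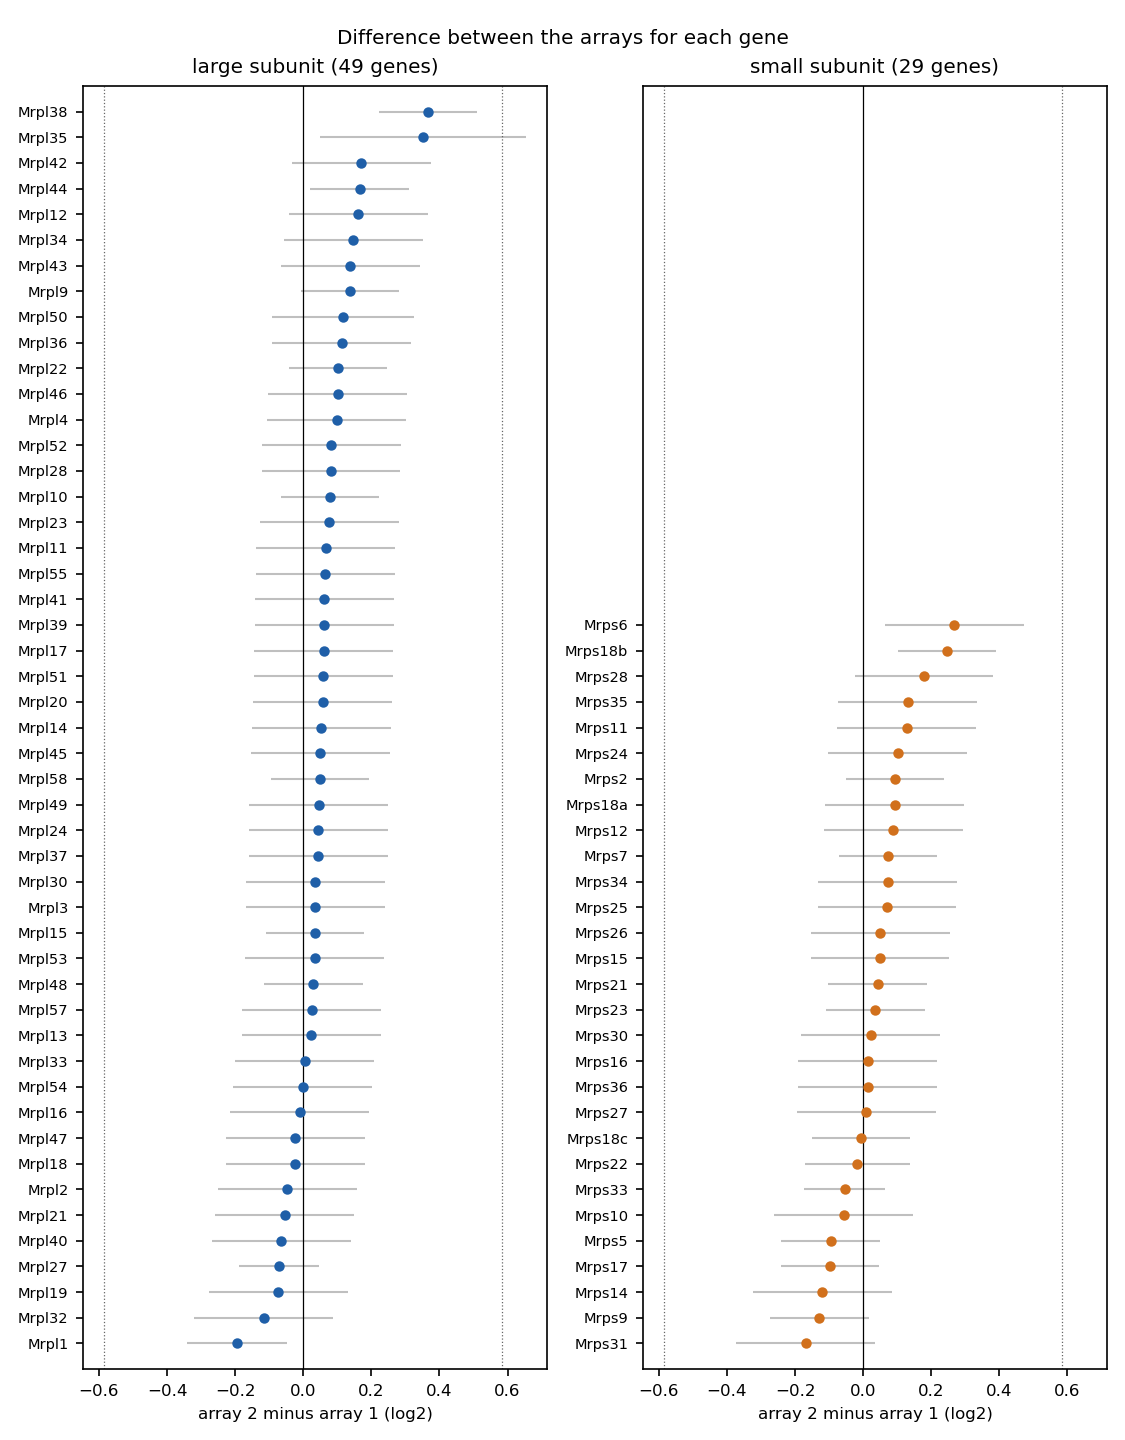
Difference of each member, array 2 minus array 1 (log2), with the large subunit on the left and the small subunit on the right, ordered by value. Bars are spot errors from the scanner software, 1 to each side, smaller for genes with 2 or 3 probes because these are averaged, and dotted lines mark 1.5-fold. All 78 points lie inside the dotted lines, and 6 lie further from 0 than their error.

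Small positive differences were the more frequent, with 58 of 78 genes higher in array 2 and 20 lower, beside 53.8% of all genes above 0. That direction depends on the scaling: with the arrays scaled by the 8 spike-in controls the median was -0.0071 and 36 of the 78 genes were higher, beside 37.9% of all genes. The subunits differed between the arrays by similar amounts. The median difference was 0.053 in the large subunit, with 38 of 49 genes higher, and 0.042 in the small subunit, with 20 of 29 higher. The medians lay 0.011 apart, which became -0.00074 with another background correction (normexp). Symbols do not always name the subunit, since Mrps30 and Mrps18a are found in the large subunit in structures, and Mrps36 is a subunit of the oxoglutarate dehydrogenase complex rather than of the ribosome. With those places the medians were 0.053 and 0.046. Mrps30 had levels of 2.77 and 2.80, Mrps18a 2.66 and 2.75, and Mrps36 3.19 and 3.20. The 46 genes with counterparts in bacterial ribosomes had a median of 0.047 and the 31 mitochondria-specific genes a median of 0.051.

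Single members stood out little, and 6 of 78 differed by more than their spot error, beside 28.6% of all genes. Mrpl38, a mitochondria-specific protein of the central protuberance, had the largest difference, with levels of 0.03 on array 1 and 0.40 on array 2 (0.37 ± 0.14). Both of its probes gave similar values, 0.35 and 0.38. It was the one member of 78 that differed by more than 2 spot errors, beside 1401 of the 13743 genes measured on both arrays. That rests on the smaller error of the mean. Each probe alone, at 0.35 ± 0.20 and 0.38 ± 0.21, lay within 2 of its own spot errors. Mrpl35, the dimmest member, came next at 0.35 ± 0.30. Its difference was 0.11 with normexp background correction and 0.29 with the spike-ins, both within its spot error.

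In the small subunit, Mrps6, a platform protein, had levels of 4.79 and 5.06 (0.27 ± 0.20). Mrps18b, whose promoter is printed above, had 1.41 and 1.65 (0.25 ± 0.15), with 0.14 from its bright probe and 0.35 from its dim one. Its paralogues differed less: Mrps18a by 0.09 ± 0.20, and Mrps18c, with levels of 3.48 and 3.47, by -0.0059 ± 0.14. Mrps28, with 3.17 and 3.35, differed by 0.18 ± 0.20, and Mrpl42 of the large subunit, with 3.92 and 4.09, by 0.17 ± 0.20. The sixth gene past its spot error was Mrpl44, which has the fold of an RNA-cutting enzyme, at 0.17 ± 0.14. Each of its probes alone, at 0.15 ± 0.20 and 0.18 ± 0.21, lay within its own spot error. Mrpl44 lies outside the rule for named genes and was chosen after its values were seen.

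Among genes lower in array 2, Mrpl1, a protein of the large subunit's side stalk, had levels of 0.35 and 0.15 (-0.19 ± 0.15). Each of its probes alone, at -0.18 ± 0.20 and -0.20 ± 0.21, lay within its own spot error. Mrps31, a mitochondria-specific protein, had 2.43 and 2.26 (-0.17 ± 0.20). Mrps9 and Mrps14, both proteins of the small subunit head, differed by -0.13 ± 0.15 and -0.12 ± 0.20. Of these 4 genes, Mrpl1 alone lay further from 0 than its spot error. With normexp Mrpl1 was at -0.11, within that error, and Mrps31 at -0.21, past its own. With the spike-ins Mrpl1 (-0.25), Mrps31 (-0.23) and Mrps9 (-0.19) passed their spot errors. The difference of Mrps9 came from its dim probe (-0.25), while its bright probe gave -0.0093. Mrpl32, which is cut by a mitochondrial protease before it joins the ribosome, had 3.76 and 3.64 (-0.12 ± 0.20). Mrps17 differed by -0.10 ± 0.14 as the mean of probes at 0.0070 and -0.20. With the spike-ins Mrps17 was at -0.15, past its spot error.

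Neighbouring proteins of the ribosome were also set side by side, in groups drawn up after values were seen. The side stalks, where translation factors and leaving tRNAs bind, had differences from -0.19 (Mrpl1) to 0.16 (Mrpl12), with Mrpl10 at 0.08 and Mrpl11 at 0.07. The proteins that reach toward the peptidyl transferase centre, where peptide bonds form, lay between -0.07 and 0.04: Mrpl27 at -0.07, Mrpl2 at -0.05, Mrpl16 at -0.01 and Mrpl3 at 0.04. The 5 proteins around the tunnel exit, among them Mrpl45, which ties the ribosome to the inner membrane, lay between -0.02 and 0.10. In the central protuberance, Mrpl40 was at -0.06 and Mrpl48 at 0.03 beside Mrpl38 and Mrpl46. The small subunit head ranged from -0.13 to 0.10, the platform from -0.0059 to 0.27 and the body from -0.10 to 0.09. No group of these lay wholly on 1 side of 0 with the main scaling. Scaling by the spike-ins lowers every difference by 0.057, which puts all the peptidyl transferase genes named here below 0.

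Some mitoribosomal proteins carry other symbols, and 5 of them were measured, 3 higher in array 2 and 2 lower. Aurkaip1 had levels of 6.63 and 6.62, Dap3, a GTP-binding protein of the small subunit, 5.42 and 5.46, and Chchd1 4.92 and 4.97. Gadd45gip1 of the large subunit had 3.96 and 4.08, and Ptcd3, an RNA-binding protein, 0.94 and 0.89. Their median difference was 0.04 (-0.02 with the spike-ins), and none of the 5 passed its spot error.

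The wider machinery of mitochondrial gene expression was read from lists drawn up with earlier results of these data known. Of 17 translation factors listed, 16 had a named probe and were measured, 10 higher and 6 lower, with a median difference of 0.08. Mtif3, an initiation factor, was at 0.32 ± 0.20 and the recycling factor Mrrf at 0.19 ± 0.12, while Guf1, a GTPase of translation, was at -0.27 ± 0.15 and the initiation factor Mtif2 at -0.20 ± 0.11. Of the 28 assembly factors, 17 were higher and 11 lower, with a median of 0.03. They ran from -0.21 ± 0.20 in Mterf3 and -0.15 ± 0.15 in Mterf4 to 0.20 ± 0.20 in the helicase gene Ddx28 and 0.31 ± 0.15 in Rcc1l.

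Mitochondrial tRNA synthetases, which load tRNAs with amino acids, had 7 of 17 genes higher and a median of -0.01. Pars2 (0.35 ± 0.16) and Ears2 (0.27 ± 0.11) were the highest, and Nars2 (-0.27 ± 0.22) and Sars2 (-0.27 ± 0.20) the lowest. Of 21 genes for mitochondrial transcription, DNA and RNA maintenance, 9 were higher and the median was -0.03. Twnk (0.42 ± 0.21) and the tRNA-processing nuclease Elac2 (0.16 ± 0.20) were the highest, and Mterf2 (-0.29 ± 0.20) and the poly(A) polymerase Mtpap (-0.20 ± 0.15) the lowest. In these 4 lists 0 genes passed 1.5-fold. Their medians moved with the processing. Scaling by the spike-ins gave 0.02 for the translation factors, -0.02 for the assembly factors, -0.07 for the synthetases and -0.08 for the maintenance list. Normexp gave 0.04 for the translation factors, -0.03 for the synthetases and -0.0067 for the maintenance list. The median of the synthetases was above 0 with the brightest probe of each gene (0.0069) and with lowess centring (0.0066).

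The gene groups closest in kind were read in the same way. The subunits of the respiratory chain and ATP synthase, which contain the partners of what mitochondrial ribosomes make, had a median difference of 0.07 over the 81 of 84 measured on both arrays, with 68 higher, and 0.0092 with scaling by the spike-ins. Cox7a1 (0.61 ± 0.20) and Cox6a2 (0.34 ± 0.23), forms of cytochrome oxidase subunits known from muscle, were the highest, and Cox4i2 (-0.14 ± 0.22) and Uqcrc2 (-0.03 ± 0.20) the lowest. The cytosolic ribosomal proteins had a median of 0.03 over 82 of 84, with 61 higher, a median that turned to -0.03 with the spike-ins, -0.00032 with quantile normalisation and -0.0049 with lowess centring. Rpl39l (0.92 ± 0.21) and Rps4l (0.43 ± 0.20) were the highest, and Rpl37 (-0.68 ± 0.34), from 1 probe near the detection floor, and Rpl5 (-0.08 ± 0.20) the lowest. Their median levels on array 1 were 5.53 for the respiratory chain and 8.21 for the cytosolic ribosome, read with the same reserve about probes as above. Small differences were not particular to the members. Within 1.1-fold lay 91.4% of the respiratory chain genes and 96.3% of the cytosolic ribosomal protein genes, beside 84.6% of the members. The shares past the spot error were 3.70%, 6.10% and 7.69% in the same order. They rest on unlike errors, with a median of 0.11 for the cytosolic ribosomal protein genes and 0.20 for the respiratory chain genes and the members.

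Proximal tubule, macrophage and monocyte, and cell cycle genes differed more between the same 2 arrays. The proximal tubule markers had a median difference of 1.11, with 15 of 16 higher in array 2 and Aqp1 at -0.15, and the macrophage and monocyte markers a median of 0.31, with 8 of 8 higher. All 7 cell cycle genes were lower in array 2 (median -0.33), and the Treg and T cell markers had a median of 0.04, with 4 of 6 higher (-0.02 with the spike-ins). The summed signal of the 78 members was 1.04 times as high on array 2, that of the proximal tubule markers 2.05 times and that of the T cell markers 1.02 times. The part of proximal tubule and macrophage RNA in the members' small differences was not tested.

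**Figure D5:**
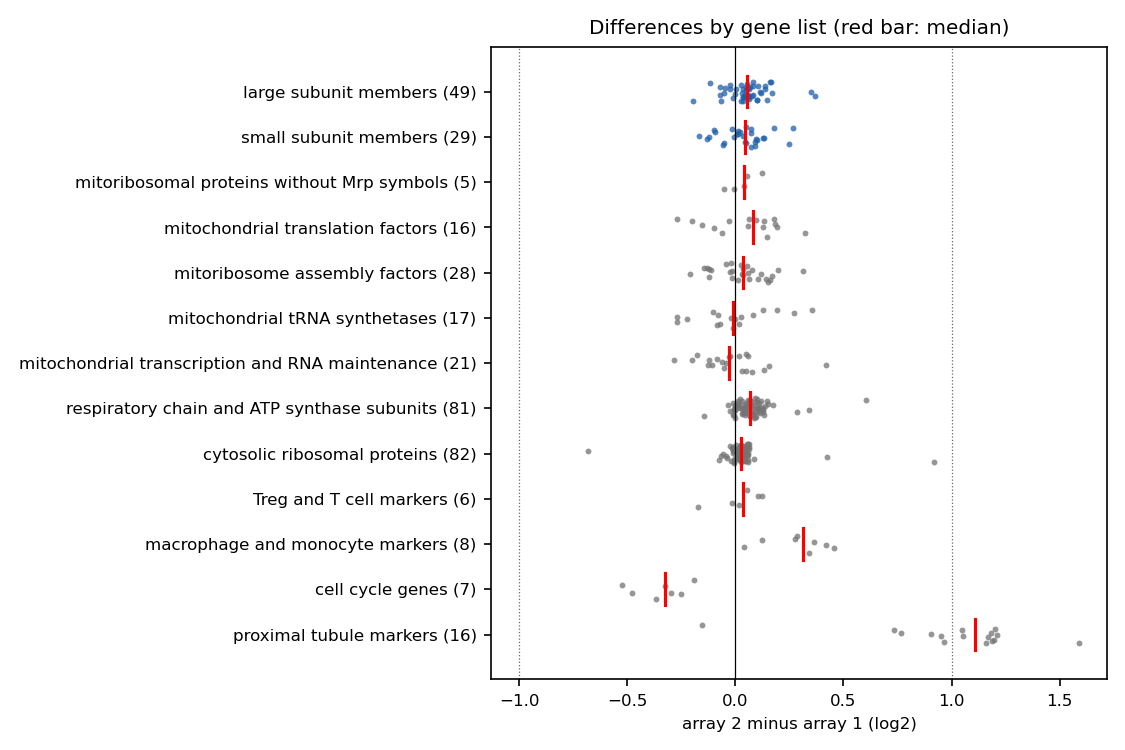
Difference of each gene, array 2 minus array 1 (log2), by list, with the number of measured genes in brackets. Points are genes, red bars medians and dotted lines 2-fold; blue points are the members. The medians of the member lists stand at 0.053 and 0.042, whereas that of the proximal tubule markers stands at 1.11 and that of the cell cycle genes at -0.33.

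The differences were also read by promoter motif. The 8 members with an NRF1 core had a median difference of 0.071 and the 61 without it 0.045. The 26 with an ETS motif had a median of 0.036 and the 43 without it 0.058. The 30 members with an NRF1 core or an ETS motif had a median difference of 0.039, and the 39 without either had 0.053. The 4 members with both, printed above, ranged from 0.0043 in Mrpl33 to 0.25 in Mrps18b, with a median of 0.082 beside 0.049 for the other 65. The 13 with the YY1 core had a median of 0.093 and the 56 without it one of 0.049. These values describe the windows that were found and carry no test.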

How the data were processed

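Total RNA of the sorted cells was labelled with Cy3 (Low Input Quick Amp, per the labels' protocols), and each sample was put on 1 single-colour Agilent mouse array. The software was Agilent Feature Extraction 10.7.1.1, per the submitters' processing notes and the file headers. The deposited processed signal is an intensity after background correction and spatial detrending, without normalisation between arrays, per the file headers. Flags of 0 or 1, such as detection well above background, are deposited in the same output. The deposited value table holds a linear ratio, found here to be the processed signal over 1 constant per array; its column medians were 0.070 and 0.069, with scale and centring settled by that match and direction not.

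Control spots (3671 of 62976) and outlier spots (75 and 56) were left out, and spots of 1 probe were averaged. Each array's 75th percentile over 56605 probes (signals of 285.6 and 279.5) was subtracted on the log2 scale. Probes were named through RefSeq accessions (GRCm38.p6, names only, since the headers name another build), which gave 32994 probes a symbol. A gene's value averages those of its probes that both arrays measured well above background. The RefSeq table also lists pseudogene copies of Mrpl23, Mrpl27, Mrpl48 and Mrps36, so these signals may include other transcripts. The number of arrays limits the precision. Named genes were the 6 highest and the 6 lowest differences, the 4 highest and the 4 lowest levels, the Mrps18 paralogues, Mrps30 and Mrps36, plus any member undetected, past 1.5-fold or with probes of opposite sign over 0.3 apart; of other lists, the 2 highest and the 2 lowest. Mrpl44, the stalk, tunnel, protuberance and peptidyl transferase genes, the neighbours and genes printed for their promoters were named outside this rule, after values were seen. Members and lists were chosen with earlier results of these data known. Alternatives were normexp (offset 50, limma 3.58.1, on the median signal, since no mean signal column was given), scaling by the gene median or spike-ins, quantile normalisation, no filter and a filter at 4 times the floor, the brightest probe, the value table, another detection flag and subunits by structure, and, chosen after seeing the data, lowess centring (span 0.3) and only the members with 2 or more probes. The gene summary was tested on simulated data.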

Additional observations from a re-analysis of the deposited data

How the results depend on the processing

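All 78 members were detected under either detection flag, and 77 at 4 times the floor, where Mrpl35 drops out. The count past 1.5-fold or 2-fold was 0 under every alternative run. Over all genes, the share past 1.5-fold (5.97%) was 1.72% with normexp, 3.47% with the stricter filter and 11.6% with none, and the share past 2-fold (1.43%) was 0.204%, 0.719% and 4.57%. The sign of the members' median was less fixed. Scaling by the spike-ins gave -0.0071 for all members, -0.0037 for the large and -0.015 for the small subunit, with 36 genes higher in array 2, since that scaling lowers every difference by 0.057. The value table taken by its labels turned the signs, to -0.050, -0.053 and -0.043, because its columns hold the arrays in the opposite order. There 20 of the 78 genes were higher, beside 46.1% of all genes. Under the other 7 whole-table alternatives the median of all members lay between 0.036 and 0.050. Of the members with several probes, an alternative chosen after seeing the data, 13 of 21 were higher. The share over all genes, with any number of probes, was 53.8%. The median level of the small subunit on array 1 became 3.32 with the brightest probe. Of the 22 named members, 16 kept their sign in every alternative apart from the value table. No paired analysis was possible because each lot has 1 array. No array could be left out for the same reason. Signal over background limits the dimmest probes: the spot error of Mrpl35 was 0.30.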
